A study of Mus musculus with 4 samples.

Results

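Treg cells release soluble products that restrain other immune cells or aid tissue repair, and 7 genes for such products were examined here in mouse Treg cells with and without the transferrin receptor TfR1. The 7 genes, of 47729 genes in the count table, were *Il10*, *Ebi3*, *Il12a*, *Fgl2*, *Lgals1*, *Areg* and *Penk*, and they were put together by what they encode, with earlier results of these data known. RNA was sequenced from 4 libraries of C57BL/6 mice. In 2 of them the genotype was *Tfrc* +/+ *Foxp3* YFP-Cre/+ (WT) and in the other 2 it was *Tfrc* fl/fl *Foxp3* YFP-Cre/+ (labelled TfR1 cko, here TfR1-deficient). All mice were females, and the age-matched mice used were 6 to 8 weeks old. The labels give the spleen as the source of the cells, while a figure legend of the study names spleens and lymph nodes for this RNA-seq. Both genotypes carry the Cre recombinase and the YFP reporter on 1 of their *Foxp3* alleles, so that after random X inactivation only part of the Treg cells express Cre, and the CD25+ YFP+ cells were sorted from CD4 T cells. Deletion of *Tfrc* is thus limited to cells that have switched on *Foxp3*, in mice that also keep Treg cells without Cre.

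IL-10 is an anti-inflammatory cytokine that acts through the receptor chains IL10RA and IL10RB. EBI3 pairs with the p35 chain encoded by *Il12a* to form IL-35, and with another partner, p28, to form IL-27. FGL2, a fibrinogen-like protein, is secreted by Treg cells and binds Fc receptors on antigen-presenting cells, and galectin-1, encoded by *Lgals1*, binds sugars on glycoproteins of activated T cells. Amphiregulin, encoded by *Areg*, is a ligand of the EGF receptor that Treg cells of injured tissues use to promote repair, and *Penk* encodes proenkephalin, the precursor of the enkephalin opioid peptides.

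Sequence upstream of the start site was at hand in RefSeq's promoter windows (GRCm38.p6) for 4 of the 7 genes, *Il12a*, *Fgl2*, *Areg* and *Ebi3*. The 250 bases before the start are printed for *Fgl2*, which had one of the largest differences between the genotypes, and beside it for *Ebi3* and *Areg*, whose intervals included no change. Capitals mark matches, on either strand, to 8 motifs searched: ACGTG (HIF core), GCGTG (AHR core), TGANTCA (AP-1), TGCTGA (part of the MAF element), GTGAAAG (core of the PRDM1 motif), TTCNNNGAA (STAT), TGACG (part of the CRE) and CACGTG (E-box, which contains ACGTG). The windows lie on the plus strand at chr5:21372423-21372672 for *Fgl2*, chr17:55952373-55952622 for *Ebi3* and chr5:91139349-91139598 for *Areg*.
Fgl2: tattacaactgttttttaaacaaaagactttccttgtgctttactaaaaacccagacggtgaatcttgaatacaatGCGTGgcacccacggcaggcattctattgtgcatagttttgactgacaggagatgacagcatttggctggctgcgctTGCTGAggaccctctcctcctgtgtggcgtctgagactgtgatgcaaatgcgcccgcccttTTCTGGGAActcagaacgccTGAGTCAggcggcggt
Ebi3: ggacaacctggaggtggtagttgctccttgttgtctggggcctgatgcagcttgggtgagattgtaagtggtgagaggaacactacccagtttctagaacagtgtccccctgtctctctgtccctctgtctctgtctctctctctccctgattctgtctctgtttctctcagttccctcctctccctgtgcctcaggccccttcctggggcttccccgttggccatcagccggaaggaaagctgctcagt
Areg: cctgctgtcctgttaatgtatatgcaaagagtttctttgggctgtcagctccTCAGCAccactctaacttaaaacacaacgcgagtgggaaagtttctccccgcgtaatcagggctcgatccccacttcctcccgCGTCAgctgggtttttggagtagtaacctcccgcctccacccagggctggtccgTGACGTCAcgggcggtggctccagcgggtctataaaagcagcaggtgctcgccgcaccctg

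The *Fgl2* window held matches to 4 of the motifs. An AP-1 match, TGAGTCA, lay 16 to 10 bases before the start, a STAT match, TTCTGGGAA, 36 to 28 bases, TGCTGA 97 to 92 bases and GCGTG 174 to 170 bases before it. In the *Areg* window a run of 8 bases that reads TGACG on both strands, a full CRE, lay 61 to 54 bases before the start, another TGACG on the minus strand 115 to 111 bases and TGCTGA on the minus strand 198 to 193 bases before it. The *Ebi3* window held none of the 8, and of the *Il12a* windows one held GCGTG, 216 to 212 bases before its start. Among all 32851 windows of this length, the AP-1 motif was in 6.75%, the STAT motif in 7.02%, TGCTGA in 16.1%, GCGTG in 28.2%, TGACG in 17.8%, ACGTG in 16.6%, GTGAAAG in 3.57% and CACGTG in 6.02%. A match of letters does not show that a factor binds there.

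The libraries held 10841939 to 17278448 counts. In TMM-scaled CPM, the count of a gene relative to the size of its library, *Tfrc* was at 50.8 and 54.1 for WT and 56.1 and 48.3 for TfR1-deficient, so whole-gene counts did not tell the genotypes apart, and every direction given here rests on the labels. The cells carried Treg and T cell markers throughout: 15 such genes summed to 12390 and 13780 CPM in WT and to 13130 and 11930 CPM in libraries labelled TfR1-deficient. *Lck* and *Lat*, which are not particular to Treg cells, were the highest, so the sum says little of Treg genes alone. *Foxp3* itself stood at 194 and 130 CPM in WT against 122 and 114 CPM. *Ikzf4* was at 120 and 120 against 86.4 and 53.7 CPM, and *Nrp1* at 308 and 370 against 237 and 181 CPM. *Il2ra* was also lower without overlap, while *Ikzf2* and *Tnfrsf18* overlapped between the genotypes. WT replicate 1 and TfR1-deficient replicate 2 stood apart from the other 2 libraries on the first principal component (62.6% of the variance), and these same libraries carried macrophage transcripts, with 769 and 2601 CPM over 14 macrophage genes against 27.5 and 32.2 CPM. With edgeR's quasi-likelihood test, 0 of 12536 tested genes (0.00%) passed an adjusted p of 0.05, while 311 (2.48%) were lower and 200 (1.60%) higher at an unadjusted p of 0.05 with a log2 fold change of at least 0.5. The study calls its libraries biological replicates without saying whether each came from a separate mouse, and p-values measure only the spread between these libraries.

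*Il10* showed the largest difference of the 7 genes. It had 147 and 59 counts in WT replicates 1 and 2, or 12.0 and 5.53 CPM, and 21 and 16 counts in TfR1-deficient replicates 1 and 2, or 1.21 and 1.17 CPM. The WT libraries differed from each other by more than the pair labelled TfR1-deficient, but the genotypes did not overlap. The means were 8.78 ± 4.60 CPM (SD, n = 2) for WT and 1.19 ± 0.0298 CPM (SD, n = 2) for TfR1-deficient, so *Il10* was 7.34-fold lower, and the log2 fold change was -2.88 with a standard error (SE) of 0.52 and a 95% interval from -4.20 to -1.56. *Il10* (ENSMUSG00000016529) lies on chromosome 1 at 131019845 to 131024970. The unadjusted p in edgeR was 0.00237 and the adjusted p over all genes was 0.911. DESeq2's Wald test gave the same log2 fold change with an adjusted p of 0.0055, and over all alternatives with an adjusted p it ran from 3.2e-05 to 0.9999. Without WT replicate 1, the library with the most *Il10*, the log2 fold change was -2.19. In these bulk libraries fewer cells that make a transcript and less of it in each cell cannot be told apart.

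*Fgl2* showed the largest difference after *Il10*. Its 292 and 251 counts in WT replicates 1 and 2 were 23.9 and 23.5 CPM, and its 128 and 96 counts in TfR1-deficient replicates 1 and 2 were 7.38 and 7.01 CPM. Within each genotype the libraries lay close together, and the gap between the genotypes was wider than either spread. With means of 23.7 ± 0.265 and 7.19 ± 0.260 CPM (SD, n = 2 each), the level was 3.29-fold lower, or -1.72 on the log2 scale (SE 0.24, 95% interval -2.32 to -1.12). The unadjusted p was 0.000659 and the adjusted p 0.911 in edgeR, and DESeq2 gave an adjusted p of 2.4e-04. Over all alternatives the adjusted p ran from 2.4e-04 to 0.9999, and the log2 fold change in the fits from -1.74 to -1.68. *Fgl2* (ENSMUSG00000039899, chromosome 5, 21372673 to 21378386) lies inside *Ccdc146*, whose own counts were 9, 11, 9 and 1, and whether reads were shared between them was not tested.

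**Figure D1:**
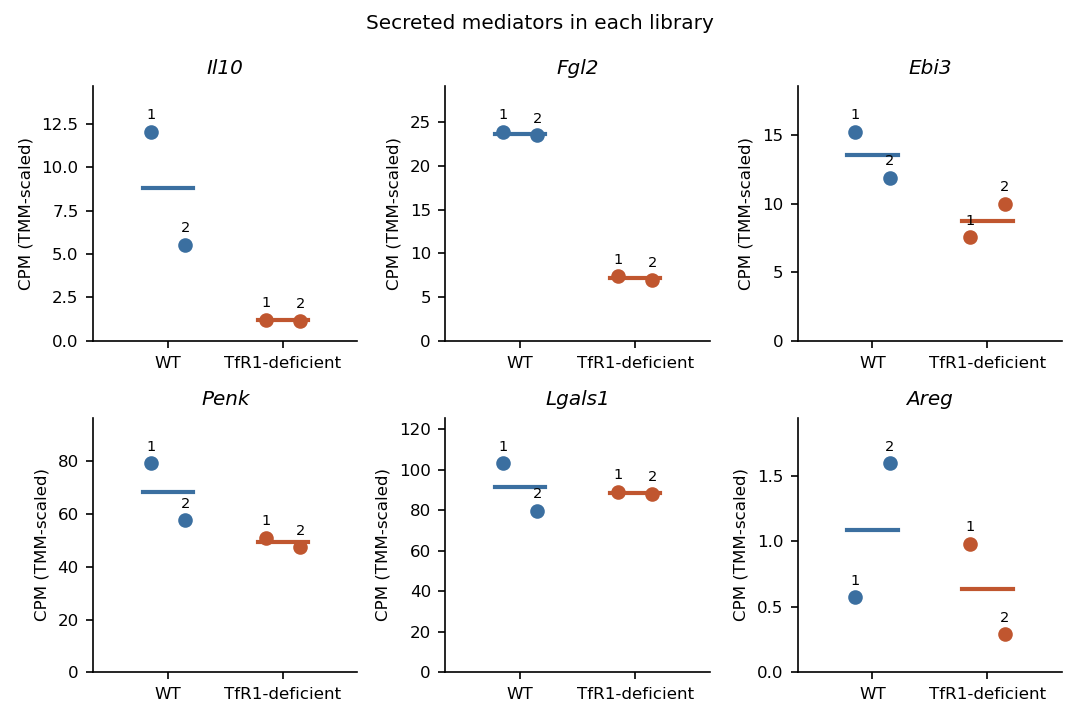
Levels of the 6 mediator genes that had counts, in TMM-scaled CPM on axes that start at 0, with 1 point per library marked by its replicate number and a bar at the group mean. *Il10*, *Fgl2*, *Ebi3* and *Penk* show no overlap between the genotypes, and *Lgals1* and *Areg* do.

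Of the chains that make up IL-35, *Ebi3* was measured and *Il12a* was not. *Ebi3* (ENSMUSG00000003206, chromosome 17, 55952623 to 55957022) had 186 and 127 counts in WT, 15.2 and 11.9 CPM, and 131 and 137 counts in libraries labelled TfR1-deficient, 7.55 and 10 CPM. The genotypes did not overlap, but the lower WT library was close to the higher library labelled TfR1-deficient. On the log2 scale the difference was -0.63 (SE 0.31, 95% interval -1.41 to 0.15, unadjusted p = 0.0936, adjusted p = 0.911 in edgeR), from 13.6 ± 2.35 to 8.78 ± 1.73 CPM (SD, n = 2 each). *Ebi3* overlaps *Zfp119b* in RefSeq, which had 156, 74, 146 and 187 counts in WT replicates 1 and 2 and TfR1-deficient replicates 1 and 2, and whether reads were shared between them was not tested.

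*Il12a* (ENSMUSG00000027776, chromosome 3, 68690644 to 68698550), which encodes the p35 partner of EBI3, had 0 counts in all 4 libraries. A count of 0 allows up to 3 counts, that is up to 0.246 and 0.281 CPM in WT replicates 1 and 2 and 0.173 and 0.219 CPM in TfR1-deficient replicates 1 and 2, for counting error only. *Il27*, which encodes p28, had 1 count, in TfR1-deficient replicate 2. At this depth neither partner of EBI3 was thus measurable beside *Ebi3* itself.

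*Lgals1* was the most highly counted of the 7 genes and the one with the smallest difference. It stood at 103 and 79.8 CPM in WT replicates 1 and 2 and at 89.2 and 88.3 CPM in libraries labelled TfR1-deficient, which lay between the WT values. The difference was -0.04 on the log2 scale (SE 0.17, adjusted p = 0.990 in edgeR) between means of 91.4 ± 16.5 and 88.7 ± 0.669 CPM (SD, n = 2 each), with a 95% interval from -0.48 to 0.40. A fold change as large as that of *Fgl2* lies outside this interval. Its sign turned, to 0.17, without WT replicate 1. *Lgals1* (ENSMUSG00000068220) lies on chromosome 15 at 78926725 to 78930465.

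*Penk* was counted nearly as highly. Its 965 and 613 counts in WT were 79.0 and 57.5 CPM, and its 885 and 648 counts in libraries labelled TfR1-deficient were 51.0 and 47.3 CPM. The genotypes did not overlap, yet the WT libraries were further from each other than the lower of them was from TfR1-deficient replicate 1. The log2 difference was -0.47 (SE 0.20, 95% interval -0.98 to 0.04) between means of 68.2 ± 15.2 and 49.2 ± 2.61 CPM (SD, n = 2 each), with an unadjusted p of 0.0629 and an adjusted p of 0.911 in edgeR. Without WT replicate 1 it was -0.21. *Penk* (ENSMUSG00000045573) lies on the minus strand of chromosome 4 at 4133536 to 4138815.

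*Areg* was close to the limit of what these libraries could measure, with 7 and 17 counts in WT replicates 1 and 2 and 17 and 4 counts in TfR1-deficient replicates 1 and 2. That is 0.573, 1.59, 0.980 and 0.292 CPM, so the genotypes overlapped, and replicate 2 was the higher library in WT and the lower one in the other genotype. The log2 fold change was -0.73 with an SE of 0.92 and a 95% interval from -3.06 to 1.61 (adjusted p = 0.955 in edgeR), and a difference was not detectable at this depth. It was 0.16 without WT replicate 2, and when TfR1-deficient replicate 1 was left out it was -1.81. *Areg* (ENSMUSG00000029378) lies on chromosome 5 at 91139599 to 91148432.

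**Figure D2:**
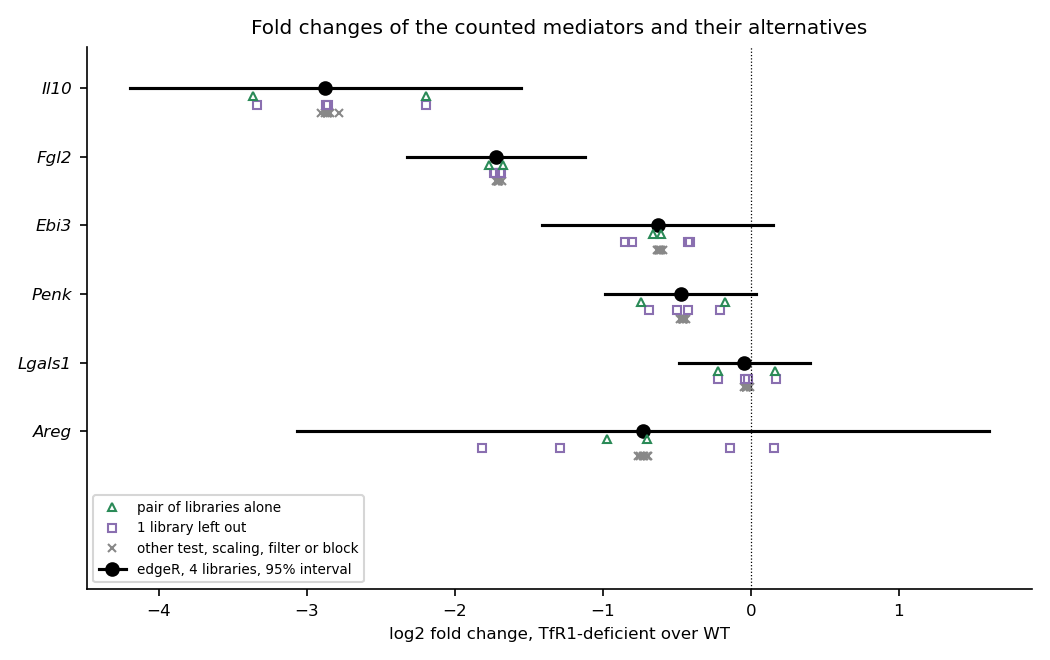
Log2 fold changes of the 6 genes with counts in libraries labelled TfR1-deficient over WT, with edgeR's estimate and 95% interval in black and the values under other settings as triangles (2 libraries only), squares (1 library left out) and crosses. The intervals of *Il10* (-4.20 to -1.56) and *Fgl2* (-2.32 to -1.12) lie below 0 and the other 4 include it.

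Set side by side, 6 of the 7 genes passed the count filter, and 2 of these, *Il10* and *Fgl2*, were lower at the unadjusted p of 0.05 with a log2 fold change of at least 0.5, where 2.48% of all tested genes were. None was higher. By DESeq2's adjusted p the same 2 were lower, where 0.243% of the genes to which DESeq2 gave an adjusted p were called lower. In 4 of the 6, *Il10*, *Fgl2*, *Ebi3* and *Penk*, WT levels were both above those of the other genotype, against 18.9% of all tested genes, and in 0 were they both lower, against 16.0%. The median log2 fold change of the 6 was -0.68, and that of all tested genes was 0.0085. The 7 genes were put together with earlier results of these data known, so these shares and medians are a description and not a test. The direction of each of the 6 was the same when libraries were scaled by total counts, by DESeq2's size factors or by the summed counts of 9 pan-T cell genes such as *Cd3e* and *Lck*. With the pan-T scaling, *Il10* was at -2.90 and *Fgl2* at -1.71.

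Per length of transcript, the order of the levels was alike in both genotypes except at *Il10* and *Fgl2*. In RPKM (CPM per kilobase of exon), WT replicates 1 and 2 had *Lgals1* at 129 and 99.7, *Penk* at 48.3 and 35.2, *Ebi3* at 13.0 and 10.2, *Il10* at 9.19 and 4.22, *Fgl2* at 6.31 and 6.21 and *Areg* at 0.478 and 1.33. Each of the first 3 was above the next in both libraries without overlap, and *Il10* and *Fgl2* overlapped. TfR1-deficient replicates 1 and 2 had *Lgals1* at 112 and 110, *Penk* at 31.2 and 29.0, *Ebi3* at 6.45 and 8.55, *Fgl2* at 1.95 and 1.85, *Il10* at 0.924 and 0.892 and *Areg* at 0.817 and 0.244. There *Fgl2* lay above *Il10* in both libraries, and *Il10* lay just above the higher of the *Areg* levels.

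Other cells of the spleen also make some of these mediators, so marker genes were read beside them. Macrophages were the type that varied most, and the 14 macrophage genes, led by *Vcam1* and *Csf1r*, all had counts. Their sum was high in 1 library of each genotype. This gives a comparison of WT replicate 2 with TfR1-deficient replicate 1, the libraries with little macrophage RNA, and another of WT replicate 1 with TfR1-deficient replicate 2. Within the first pair the log2 ratio was -2.19 for *Il10*, -1.67 for *Fgl2*, -0.66 for *Ebi3*, -0.17 for *Penk*, 0.16 for *Lgals1* and -0.70 for *Areg*. Within the second it was -3.37, -1.77, -0.61, -0.74, -0.22 and -0.97 in the same order. *Il10*, *Fgl2*, *Ebi3*, *Penk* and *Areg* were lower in both pairs, and *Lgals1* turned its sign between the pairs. With 1 library of each genotype in a pair these ratios carry no spread, and the part of macrophage RNA in them was not tested.

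**Figure D3:**
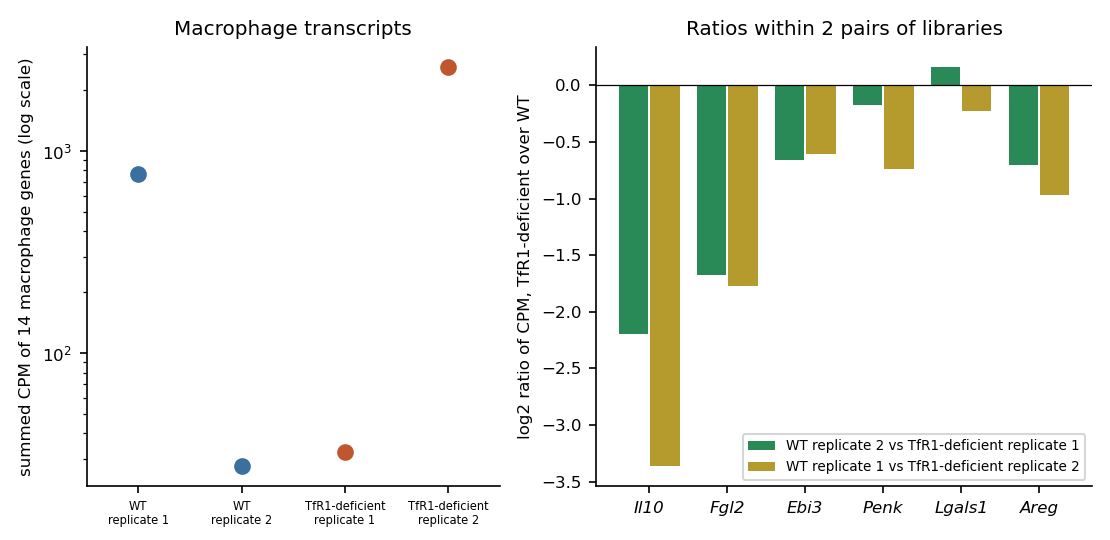
Left, the summed CPM of 14 macrophage genes in each library on a log scale, at 769, 27.5, 32.2 and 2601. Right, log2 ratios of CPM in the library labelled TfR1-deficient over the WT library, within the pair with few (green) and the pair with more (ochre) macrophage transcripts. All the genes shown but *Lgals1* are lower in both pairs.

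Markers of the other types were lower than the macrophage markers were in those 2 libraries. Erythroid genes were the highest of them except in WT replicate 1, where B cell genes were. Plasma cells, a known source of IL-10 and IL-35, had 2.87 and 5.44 CPM in WT and 6.80 and 14.2 CPM in libraries labelled TfR1-deficient over 4 genes, 1 of which was at 0 throughout. The 6 B cell genes summed to 25.5 to 42.5 CPM in WT and 30.9 to 37.1 CPM in the other genotype, mostly *Cd79b*. The 6 dendritic cell genes summed to at most 10.4 CPM, the 5 mast cell and basophil genes to at most 6.28 CPM, the 3 NK cell genes to at most 5.33 CPM, the 2 CD8 T cell genes to at most 12.6 CPM and the 3 platelet genes to at most 3.28 CPM. The 4 neutrophil genes had no counts, and 5 erythroid genes ranged from 17.5 CPM in WT replicate 1 to 287 CPM in TfR1-deficient replicate 2. The part of these cells in the values of the 7 genes was not tested.

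Related genes were read in 7 lists, each beside the shares of all tested genes, of which 2.48% were lower and 1.60% higher at the unadjusted p. Of 15 receptors and binding partners, 11 were tested, 2 of them were lower at the unadjusted p and 0 higher, and their median log2 fold change was -0.17. *Il10ra*, the ligand-binding chain of the IL-10 receptor, was at 60.5 ± 12.4 CPM in WT and 39.6 ± 0.487 CPM in libraries labelled TfR1-deficient (SD, n = 2 each), that is a log2 difference of -0.61 (SE 0.19). *Il12rb1*, a chain shared by the receptors of IL-12 and IL-23, was at 38.9 ± 9.01 and 18.8 ± 1.88 CPM (SD, n = 2 each), that is a log2 difference of -1.05 (SE 0.24). Neither passed the adjusted p in edgeR (0.911 for both). *Fcgr2b*, which encodes an inhibitory Fc receptor bound by FGL2, had 0 counts in every library, as did *Oprd1*, which encodes a receptor of enkephalins. *Fcgr3*, another Fc receptor gene of the list, had 345 and 7 counts in WT and 28 and 1059 in libraries labelled TfR1-deficient. In that order *Oprm1*, a further opioid receptor gene, had 4, 2, 1 and 0 counts. *Ogfr*, the opioid growth factor receptor gene, was at 109.5 and 102.5 CPM in WT and 107.7 and 80.6 CPM in libraries labelled TfR1-deficient.

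Among 7 other chains of the IL-10 and IL-12 families, none passed the count filter and 4 had no counts at all. *Il23a* had 4 counts and *Il12b* 1, all in TfR1-deficient replicate 2. Of 8 galectins and galectin-related genes other than *Lgals1*, 6 were tested and 0 passed the unadjusted p, with a median of 0.093. *Lgals9* was at 368 and 296 CPM in WT and 246 and 346 CPM in libraries labelled TfR1-deficient, and *Lgals3bp*, which encodes a galectin-binding protein, was at 203 and 179 against 210 and 225 CPM.

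For *Areg*, 13 genes for EGF family ligands and for proteins tied to their shedding were listed, and 7 were tested, with a median of -0.16. Only *Adam8*, a membrane metalloprotease, was lower at the unadjusted p among them, from 11.3 ± 0.646 to 5.97 ± 0.282 CPM (SD, n = 2 each), that is a log2 difference of -0.92 (SE 0.28). For *Penk*, 3 of 9 related genes were tested, with a median of -0.36, and *Furin*, a proprotein convertase that also processes many other precursors, was the one lower at the unadjusted p, from 43.0 ± 10.4 to 28.5 ± 2.09 CPM (SD, n = 2 each), that is a log2 difference of -0.60 (SE 0.23). The neuroendocrine convertase genes *Pcsk1* and *Pcsk2* had at most 4 counts in any library.

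Of 17 other secreted or secretion-linked Treg products, 11 were tested, and 1 was lower and 1 higher at the unadjusted p. The lower was *Cst7*, which encodes the cysteine protease inhibitor cystatin F, from 34.2 ± 2.10 to 13.6 ± 2.85 CPM (SD, n = 2 each), that is a log2 difference of -1.33 (SE 0.24), with an adjusted p of 0.911 in edgeR and 0.0091 in DESeq2. The higher was *Ltb*, which encodes the membrane-bound cytokine lymphotoxin beta, at 716 and 600 CPM in WT and 1048 and 939 CPM in libraries labelled TfR1-deficient, that is a log2 difference of 0.59 (SE 0.16). The median of these 11 was -0.18.

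Most regulators tied to *Il10* and to effector Treg cells had negative log2 fold changes, 20 of 22, beside 6135 of all 12536 tested genes. Of the 22, 6 were lower at the unadjusted p, where 2.48% of all tested genes were, 0 were higher, and the median was -0.36. WT levels were both above those of the other genotype in 14 of them, against 18.9% of all tested genes, and 0 had the reverse, against 16.0%. The list was chosen with earlier results of these data known, so these shares are a description and not a test. *Maf*, an activator of *Il10*, was at 65.2 ± 4.57 CPM in WT and 33.3 ± 6.91 CPM in the other genotype (SD, n = 2 each), that is a log2 difference of -0.97 (SE 0.20). *Ahr*, the aryl hydrocarbon receptor, had a log2 fold change of -1.60 (SE 0.33), and *Irf4* one of -0.98 (SE 0.37). *Bhlhe40*, a known repressor of *Il10*, was lower too, at -1.49 (SE 0.29), and so was the IL-33 receptor gene *Il1rl1* at -1.15 (SE 0.38), a receptor and not a transcription factor. *Maf*, *Ahr*, *Irf4*, *Bhlhe40* and *Il1rl1* each had an adjusted p of 0.911 in edgeR, and *Bhlhe40* alone of these passed in DESeq2 (adjusted p = 9.7e-04).

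**Figure D4:**
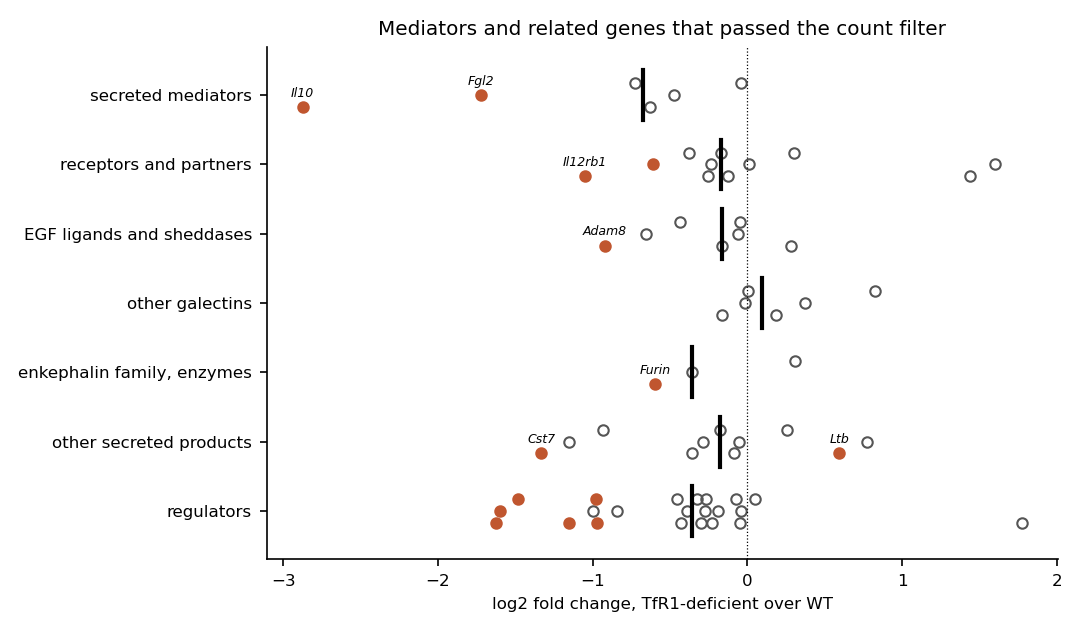
Log2 fold changes, in libraries labelled TfR1-deficient over WT, of the mediators and of related genes that passed the count filter, 1 point per gene (vertical offsets only separate points), filled where the unadjusted p was under 0.05 and the change at least 0.5, with a bar at each list's median. *Il10* (-2.88) and *Fgl2* (-1.72) lie furthest to the left, and the list medians run from -0.68 for the mediators to 0.093 for the other galectins.

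The genes whose levels over the 4 libraries were most like those of each mediator were found among 9123 genes by the distance between log2 CPM profiles after the mean of each gene was removed. Nearest to *Il10* were *Gbp5* (distance 0.995 log2 units), *Itgae* (1.05) and *Ccr4* (1.08), none of them close. Nearest to *Fgl2* were *Plcxd2* (0.112), *Sccpdh* (0.162) and *Ahr* (0.309), and *Plcxd2* stood at 95.4 and 96.8 CPM in WT and 28.0 and 26.7 CPM in libraries labelled TfR1-deficient. Nearest to *Ebi3* were *Hsd17b7* (0.0679), *Lrch4* (0.0827) and *F2rl1* (0.0849), and to *Penk* they were *Skiv2l* (0.0496), *Dopey2* (0.0524) and *Sh2b1* (0.0726). *Lgals1* had *Vezf1* (0.0116), *Zfp747* (0.0202) and *Acsl1* (0.0372) beside it. *Areg*, with its few counts, lay nearest to *Tnfrsf26* (0.299), *H2-Q4* (0.314) and *Zc3h12d* (0.317).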

How the data were processed

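RNA-seq of 4 sorted Treg cell libraries was analysed from the deposited counts, which the authors made as whole numbers of reads per Ensembl gene, neither normalized nor pooled. The methods name STAR and mm9, while the submitters' processing notes name mm10, Trim Galore 0.6.7, STAR 2.7.9a and featureCounts. The annotation release, the strand setting and the handling of shared reads were not given in the sources used here, and coordinates are those of RefSeq on GRCm38.p6. All 47729 rows named a gene, symbols were found for 32799, and 0 columns were left out.

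Of these, 12536 genes passed filterByExpr, received TMM scaling and went into the quasi-likelihood test of edgeR version 4.0.16 (R 4.3.3) in a model of genotype alone and Benjamini-Hochberg adjustment over all genes. A gene was called at an adjusted p under 0.05 if it also differed by 0.5 or more on the log2 scale, and counts at the unadjusted p stand beside. Standard errors came from the fold change and the F statistic. RPKM used exon lengths of GENCODE vM1. Log2 CPM had a prior count of 2. With 2 libraries against 2, exact permutation for 1 gene reaches no p under 0.333.

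The mediators and all lists were chosen with earlier results of these data known. Named were the 7 mediators, *Tfrc*, *Foxp3*, list genes past the unadjusted p and minimum change (otherwise the 2 with most counts), the 2 highest genes of a marker list, and 3 genes of at least 5 CPM most like each mediator; 1 list gene that this rule names is not reported here. *Il27*, *Fcgr2b*, *Fcgr3*, *Oprd1*, *Oprm1*, *Ogfr*, *Pcsk1*, *Pcsk2*, *Ikzf4*, *Nrp1*, *Il2ra*, *Ikzf2* and *Tnfrsf18* were named after their values were seen. DESeq2 1.42.0, other scalings and filters, a replicate block and omitted libraries were alternatives. Replicates differed beyond counting noise (chi-square per degree of freedom of 29.3 in WT and 45.7 in TfR1-deficient), so none was merged.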

Additional observations from a re-analysis of the deposited data

How the results depend on the processing

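The direction of the log2 fold changes of *Il10*, *Fgl2*, *Ebi3* and *Penk* was the same under each alternative run for them, the crossed block below not among these, and that of *Lgals1* and *Areg* was not. By adjusted p, *Il10* passed with DESeq2's Wald test (log2 fold change -2.88) and with no count filter in edgeR (-2.86, adjusted p = 3.2e-05), and *Fgl2* passed in the same fits (-1.71 in both, adjusted p = 2.4e-04 and 6.0e-04). *Lgals1* turned to 0.16 in WT replicate 2 against TfR1-deficient replicate 1. With each library left out, in fits that take the lone library of a genotype to vary like the others, *Lgals1* ran from -0.22 to 0.17, *Areg* from -1.81 to 0.16, *Il10* from -3.33 to -2.19, *Fgl2* from -1.74 to -1.69, *Ebi3* from -0.85 to -0.41 and *Penk* from -0.69 to -0.21. No fit was run for *Areg* at 10 counts or more in every library, which it did not reach.

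Calls at the adjusted p numbered 6 higher and 28 lower in DESeq2 and 167 and 95 with no count filter, against 0 and 0, and with no filter 650 genes were higher at the unadjusted p. With libraries left out, the unadjusted counts ran from 169 to 353 higher (353 without TfR1-deficient replicate 1) and from 131 to 382 lower (131 without WT replicate 1), against 200 and 311. Of the lists, the median of the EGF ligands and sheddases was lowest, at -0.38, without TfR1-deficient replicate 2 and highest, at -0.0075, when WT replicate 1 was left out, against -0.16 with all 4 libraries. That of the other galectins ran from 0.019, without TfR1-deficient replicate 2, to 0.10, against 0.093. Without WT replicate 2 the median of the proenkephalin list was -0.030, against -0.36, that of the other secreted products was -0.42, against -0.18, and that of the regulators was -0.55, against -0.36. The other secreted products were at -0.038 when WT replicate 1 was omitted and at -0.012 when TfR1-deficient replicate 1 was. The receptors were at -0.11 when WT replicate 1 was omitted and at -0.25 when TfR1-deficient replicate 1 was, against -0.17. The cause of these shifts was not tested.

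The replicate numbers are shared but no source pairs the libraries, and deviations of same-numbered libraries correlated at -0.61. With the replicate block, 70 genes were higher and 141 lower by unadjusted p, and it left every mediator's side of the threshold as it was, with log2 fold changes of -2.78 for *Il10* and -1.72 for *Fgl2*. The crossed block, added after seeing the data, put WT replicate 1 with TfR1-deficient replicate 2 and WT replicate 2 with TfR1-deficient replicate 1. These are the pairs alike in macrophage transcripts. The crossed block called 150 genes higher and 210 lower by adjusted p, and 596 and 519 by unadjusted p. Values of the mediators under it are not given. *Areg* had at most 17 counts in a library and *Il12a* had 0, so depth limits what can be said of them.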
